A study of Mus musculus with 14 samples.

Results

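The genes described here encode the nuclear subunits of oxidative phosphorylation, in mouse cortex that lacked the microRNA family miR-29 or in which 1 target of that family, Dnmt3a, was released from it. Members were taken by symbol: Nduf genes with a letter a, b, c, s or v and a number (complex I), Sdha to Sdhd (complex II), Uqcr (complex III), Cox4 to Cox8 (complex IV) and Atp5 (complex V). The rule found 84 of the 24444 genes in each of the 2 expression tables, 37 in complex I, 4 in complex II, 8 in complex III, 18 in complex IV and 17 in complex V. Not every member is a subunit. Ndufa4 and Ndufa4l2 carry complex I names, but the Ndufa4 protein binds complex IV. Cox7a2l promotes the joining of complexes III and IV into supercomplexes, and Atp5s and Atp5sl (an assembly factor of complex I) are not among the standing subunits of ATP synthase.

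Complexes I to IV of the inner mitochondrial membrane pass electrons from NADH and succinate to oxygen and, except for complex II, pump protons. Complex V, the ATP synthase, lets the protons flow back and makes ATP. In cortex most of that ATP pays for ion pumping and synaptic transmission. Complexes I, III, IV and V also hold subunits encoded by the mitochondrial genome, 13 in all, and these were not analysed here.

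Polyadenylated RNA was sequenced from whole cortex in 4 groups. The miR29Nestin mice (n = 3) carried floxed alleles at both miR-29 clusters, deleted with Nestin-Cre, a transgene active in neural progenitors, so that deletion is inherited by most neurons and by astrocytes and oligodendrocytes, while microglia arise elsewhere. They were compared with miR29WT mice (n = 3), both at postnatal day 40. The Dnmt3a-mi5 mice (n = 4) kept miR-29 intact and carried a knock-in in which 5 miR-29 sites in the Dnmt3a 3′ UTR were mutated, and they were compared with Dnmt3a-WT mice (n = 4), all at 4.5 months. The labels do not give the strain, the Cre or flox status of the wild types, or whether littermates were used. They do not state that each library is 1 animal, so p-values measure the spread between these samples. The 2 tables were normalised separately and differ in age and library kit, so levels are compared only within a table.

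Dnmt3a, the target that both models share, was checked first. It stood at 5275, 5452 and 5859 normalised counts in miR29Nestin libraries 1 to 3 and at 1724, 1658 and 1605 in the wild types. It stood at 2249, 1958, 2163 and 1948 in the Dnmt3a-mi5 libraries against 1200, 1062, 1085 and 1234. All libraries matched their labels by this gene, whereas the deleted microRNAs themselves were not measured in these polyadenylated libraries. A normalised count here is the read count of a gene after the authors' scaling for library size, recovered from the deposited log2 values. Recovered totals were 9166000 to 14400000 reads per miR29 library. The depth of the Dnmt3a libraries is unknown, and their normalised counts are approximate. The 12 markers of cortical neurons together held 151200 to 184500 normalised counts in each miR29 library and 135800 to 158600 in each Dnmt3a library.

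The family shares 1 seed, bases 2 to 8 of the mature strand, shown here in capitals because target sites are recognised through it. Sequences are from RefSeq (GRCm38.p6).
miR-29a-3p: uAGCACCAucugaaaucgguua
miR-29b-3p: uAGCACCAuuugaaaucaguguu
miR-29c-3p: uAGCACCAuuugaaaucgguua

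Few members carry the matching site. The 7 bases TGGTGCT occur in an annotated 3′ UTR of 3 of 84 members, namely Atp5g1, Ndufb8 and Sdhc (GENCODE M21, GRCm38), against 16.27% of all annotated genes tested in the miR29 table. Member transcripts are short, with a median 3′ UTR of 202 nt against 1290 nt for tested genes. The 30 bases around each match follow, with the match in capitals. The last match, in Sdhc, extends to 8 bases.
Atp5g1, minus strand, chr11:96073034-96073063: ccatgccagtccTGGTGCTggagtctactg
Atp5g1, minus strand, chr11:96072816-96072845: gggtaatgatgtTGGTGCTttgtcactttc
Ndufb8, minus strand, chr19:44549019-44549048: agacactgcatgTGGTGCTcagacattcag
Sdhc, minus strand, chr1:171128672-171128701: gtgctttgtttgTGGTGCTAggggtcaaag

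The first Atp5g1 match lies in 4 of 4 annotated coding transcripts and the second in 2 of 4. The matches in Ndufb8 (1 of 4 transcripts) and Sdhc (1 of 3) lie in minor annotated forms, and which form the cortex uses was not measured. Among all annotated genes with at least 1 match, 17.27% were called higher in miR29Nestin, against 7.42% of those with none. Of the 18 members called higher below, 2 carry a match, Atp5g1 and Sdhc. Ndufb8, with a match, did not pass the test, at 1547 ± 93.3 normalised counts (SD, n = 3) against 1505 ± 36.6.

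In miR29Nestin cortex the median difference of each complex lay slightly above 0, and no member was called lower. Of 76 members with enough signal to test, 18 were called higher and 0 lower by limma at an adjusted p under 0.05, the adjustment running over all 12014 genes tested. That is 23.7% of tested members, while over all tested genes 9.02% were called higher and 10.0% lower. The counts of this paragraph include Cox6a2, which passed the filter only through its level in miR29Nestin. Among the 75 other tested members, 17 were called higher. At an unadjusted p under 0.05, 35 members (46.1%) were higher and 0 lower, against 16.2% and 16.8% of all tested genes. The median log2 difference of tested members was 0.12 against -0.005 for all tested genes, and the median ratio of normalised counts was 1.11. The difference was positive in 70 of the 76, and in 39 (51.3%) the 3 miR29Nestin libraries all lay above the 3 wild types, against 18.6% of all tested genes. In 0 members did they all lie below, against 18.7% of genes.

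The number called depended on which libraries were used. It was 10 without miR29Nestin library 1, 8 without library 2 and 20 without library 3. It was 10, 6 and 7 without wild-type libraries 1, 2 and 3. In each of these 6 fits 0 members were called lower, and the median difference stayed between 0.09 and 0.15. Of the 18, Cox6a2, Atp5g3 and Atp5g1 were called under every alternative in which they were tested. Ndufa9, Uqcrc1 and Ndufa4 each lost the call in 1 of 17, without wild-type library 1, 2 and 3 respectively (adjusted p = 0.0598, 0.0703 and 0.0714). The other 12 each lost it in 3 to 11 of 17, in every case including fits without 1 library, and their highest adjusted p-values ran from 0.0799 to 0.153.

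**Figure D1:**
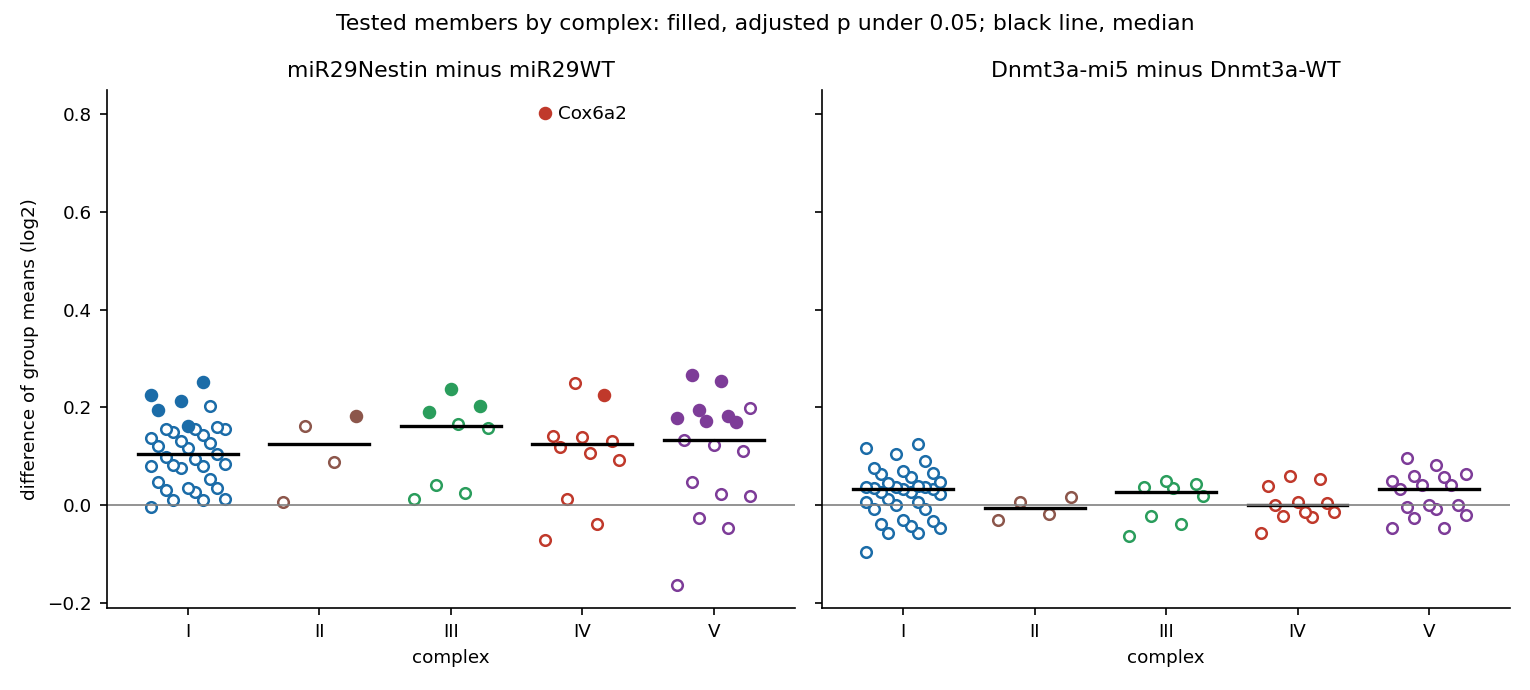
Difference of group means on the log2 scale (vertical axis) for each tested member, by complex, in the miR29 table (left) and the Dnmt3a table (right). Filled points have an adjusted p under 0.05 and black lines are medians; 18 points are filled on the left and 0 on the right, and Cox6a2 lies apart at 0.80.

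The rise was spread over the libraries of the group. The median deviation of tested members from their mean over all 6 libraries was 0.10, 0.04 and 0.03 on the log2 scale in miR29Nestin libraries 1 to 3. It was -0.04, -0.06 and -0.07 in the wild types. Library 1 of miR29Nestin was the highest in every complex, and complex II in miR29Nestin library 2, at -0.005, was the only complex median of that group below 0. By Y-linked genes 1 of the 3 miR29Nestin and 2 of the 3 wild-type libraries came from males, and with a term for sex 25 members were called.

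**Figure D2:**
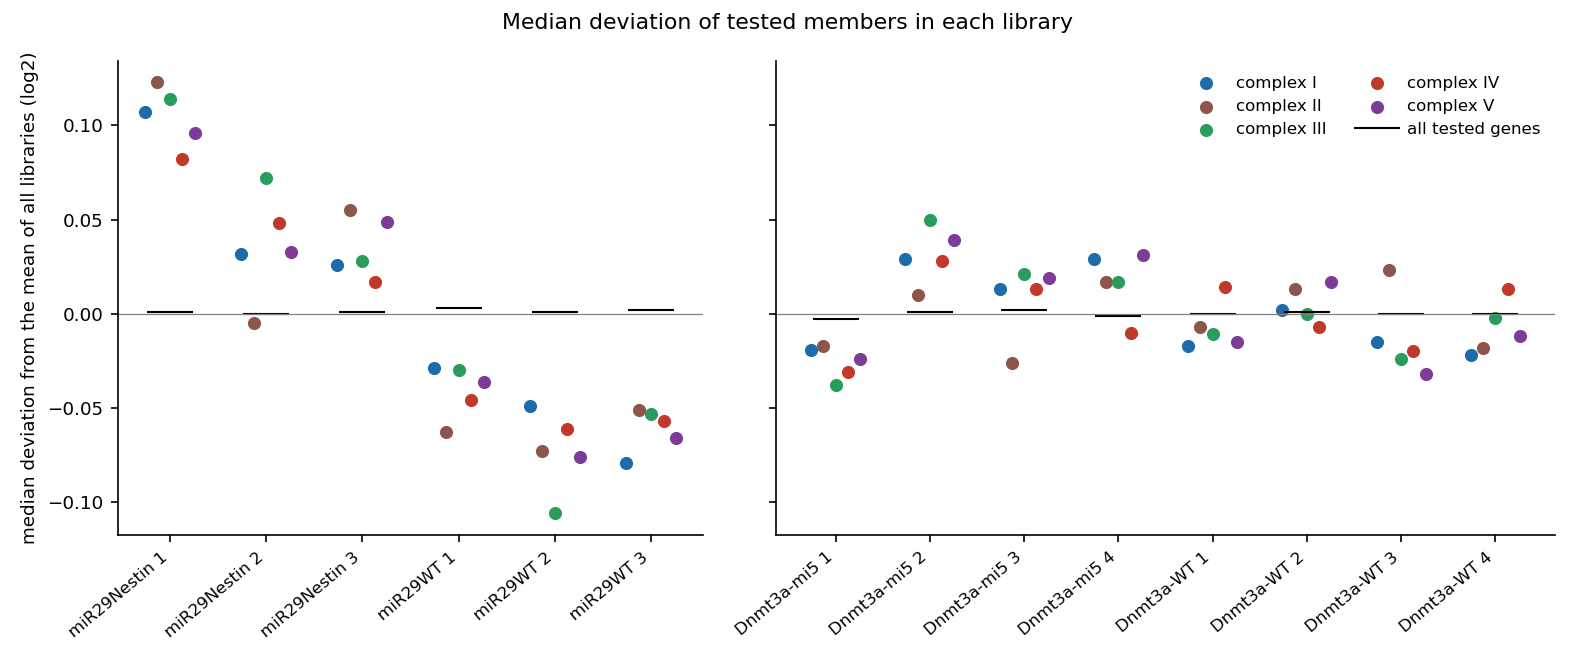
Median deviation of tested members of each complex from the mean of all libraries of the table (log2, vertical axis), by library. Every miR29WT median lies below 0 and all but 1 of the miR29Nestin medians lie above, while the Dnmt3a libraries of both genotypes mix around 0.

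Complex I, which takes electrons from NADH, had 5 of 35 tested members called higher (14.3%), against 9.02% of all tested genes. These 5 calls include Ndufa4, whose protein binds complex IV. The median log2 difference was 0.10. The count was 8 with the replicate number as a block, 3 with trends of transcript length and GC content removed, and 1 to 6 when 1 library was left out. Ndufv1 binds NADH and its flavin in the tip of the peripheral arm. It measured 1845, 1711 and 1722 normalised counts in miR29Nestin and 1528, 1460 and 1551 in wild type, a log2 difference of 0.20 ± 0.05 (SE, limma adjusted p = 0.0249). The groups did not overlap, and the same held for the other core members of this NADH-oxidising module, Ndufs1 and Ndufv2, whose adjusted p-values were 0.110 and 0.105. In the quinone-binding module the core members Ndufs3, Ndufs7 and Ndufs8 did not pass the test, with log2 differences of 0.10, 0.13 and 0.04.

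Among 27 tested supernumerary members, which stabilise the core, 3 were called (11.1%), a share near the 9.02% of all tested genes. Ndufa9, which sits at the quinone-binding module, measured 1430, 1260 and 1265 normalised counts against 1018, 1113 and 1105, a log2 difference of 0.25 ± 0.06 (SE, limma adjusted p = 0.0166). Ndufs4, whose loss in mice is a model of Leigh syndrome, measured 1052, 940.7 and 899.2 against 789.4, 820.9 and 782.5 (limma adjusted p = 0.0270). All miR29Nestin libraries lay above all wild types for both. Ndufa6, an LYR-motif subunit, rose by 14.1% in normalised counts (limma adjusted p = 0.0456), and its call was lost in 11 of 17 alternatives. Ndufb9 lay just outside the threshold, with a log2 difference of 0.20 and an adjusted p of 0.0525. The lowest of complex I was Ndufa1, a membrane-arm subunit, at 421 ± 26.2 normalised counts (SD, n = 3) against 423 ± 41.8.

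Ndufa4, bound to complex IV, was the other member called under the complex I symbols. It measured 3110, 2835 and 2899 normalised counts in miR29Nestin and 2562, 2558 and 2423 in wild type, with no overlap. The log2 difference of the group means came to 0.21 ± 0.05 (SE, adjusted p = 0.0153).

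Complex II oxidises succinate and belongs to the tricarboxylic acid cycle as well, and all 4 of its subunits are nuclear. Sdhc, 1 of its 2 membrane anchors, measured 1098, 1072 and 1057 normalised counts in miR29Nestin against 935.6, 891.1 and 954.0. The groups did not overlap, with a log2 difference of 0.18 ± 0.05 (SE, limma adjusted p = 0.0321). With trends of transcript length and GC content removed from each library the adjusted p was 0.0808. The call was also lost when any of the libraries other than miR29Nestin library 3 was left out. The other anchor, Sdhd, had a log2 difference of 0.16 (adjusted p = 0.0941) and the flavoprotein Sdha 0.09 (0.182), both without overlap. The iron-sulfur subunit Sdhb did not differ beyond its spread, at 1569 ± 134 normalised counts (SD, n = 3) against 1559 ± 94.0. Complex II counts thus rested on 4 genes, of which 1 was called (25.0%, against 9.02% of all tested genes).

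In complex III, which passes electrons from quinol to cytochrome c, 3 of 8 members were called (37.5%), against 9.02% of all tested genes. The median log2 difference was 0.16, and 1 to 4 were called when 1 library was left out. Uqcrc1, a core protein, measured 3199, 2946 and 2926 normalised counts against 2581, 2379 and 2654. Its groups did not overlap, with a log2 difference of 0.24 ± 0.06 (SE, limma adjusted p = 0.0144), and without wild-type library 2 the adjusted p was 0.0703. Its partner core protein, Uqcrc2, did not pass the test, at 2847 ± 114 normalised counts (SD, n = 3) against 2819 ± 154. The hinge protein Uqcrh rose by 15.5% (limma adjusted p = 0.0253) and Uqcrb by 18.3% (0.0414) in normalised counts. The Rieske iron-sulfur protein, Uqcrfs1, had an adjusted p of 0.0609, and of 0.0404 with the replicate block. Cyc1, the cytochrome of the same complex outside the symbol rule, stood at 1978 ± 60.5 against 1756 ± 68.1 normalised counts (adjusted p = 0.0547).

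Complex V had 7 of 17 members called higher (41.2%), against 9.02% of all tested genes, with a median log2 difference of 0.13. When any 1 library was left out, 2 to 6 were called. Its c ring, which turns as protons pass, is built of 1 protein sequence encoded by Atp5g1, Atp5g2 and Atp5g3, whose products differ only in the import peptide that is cut off. Atp5g3 measured 2592, 2471 and 2460 normalised counts in miR29Nestin and 2157, 1990 and 2019 in wild type, a log2 difference of 0.27 ± 0.05 (SE, limma adjusted p = 0.00473). Atp5g1 measured 1275, 1213 and 1201 against 1033, 1026 and 945.3, a log2 difference of 0.26 ± 0.06 (SE, limma adjusted p = 0.00862). Neither gene's groups overlapped. Atp5g2, the least abundant of the 3, measured 170 ± 9.43 normalised counts (SD, n = 3) against 180 ± 12.6 and did not pass the test. Per kilobase of transcript, Atp5g3 made up 61.9% of c-ring counts in miR29Nestin and 60.8% in wild type, and Atp5g1 31.3% and 30.6%.

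In the F1 head and central stalk, the catalytic part, Atp5a1, Atp5b and Atp5c1 rose (3 of 5 members, against 9.02% of all tested genes). Atp5b, the catalytic beta subunit and the most abundant member by normalised counts, measured 17165, 15645 and 14969 against 14361, 14017 and 13969 (12.8% higher, limma adjusted p = 0.0407). Atp5a1 was 14.8% higher (0.0216) and Atp5c1 14.0% higher (0.0186). The delta subunit Atp5d did not pass the test, at 2210 against 2178 normalised counts. Of the 4 peripheral-stalk members, which hold the head still, Atp5o (13.7% higher, adjusted p = 0.0244) and Atp5j (14.9% higher, 0.0405) rose. The small membrane subunit Atp5l had the lowest log2 difference of all tested members, -0.16 ± 0.10 (SE). It measured 198.0, 178.7 and 181.4 normalised counts in miR29Nestin and 298.4, 193.3 and 193.7 in wild type. Wild-type library 1 stood far above the other 5 libraries, and the gene did not pass the test (limma adjusted p = 0.282).

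**Figure D3:**
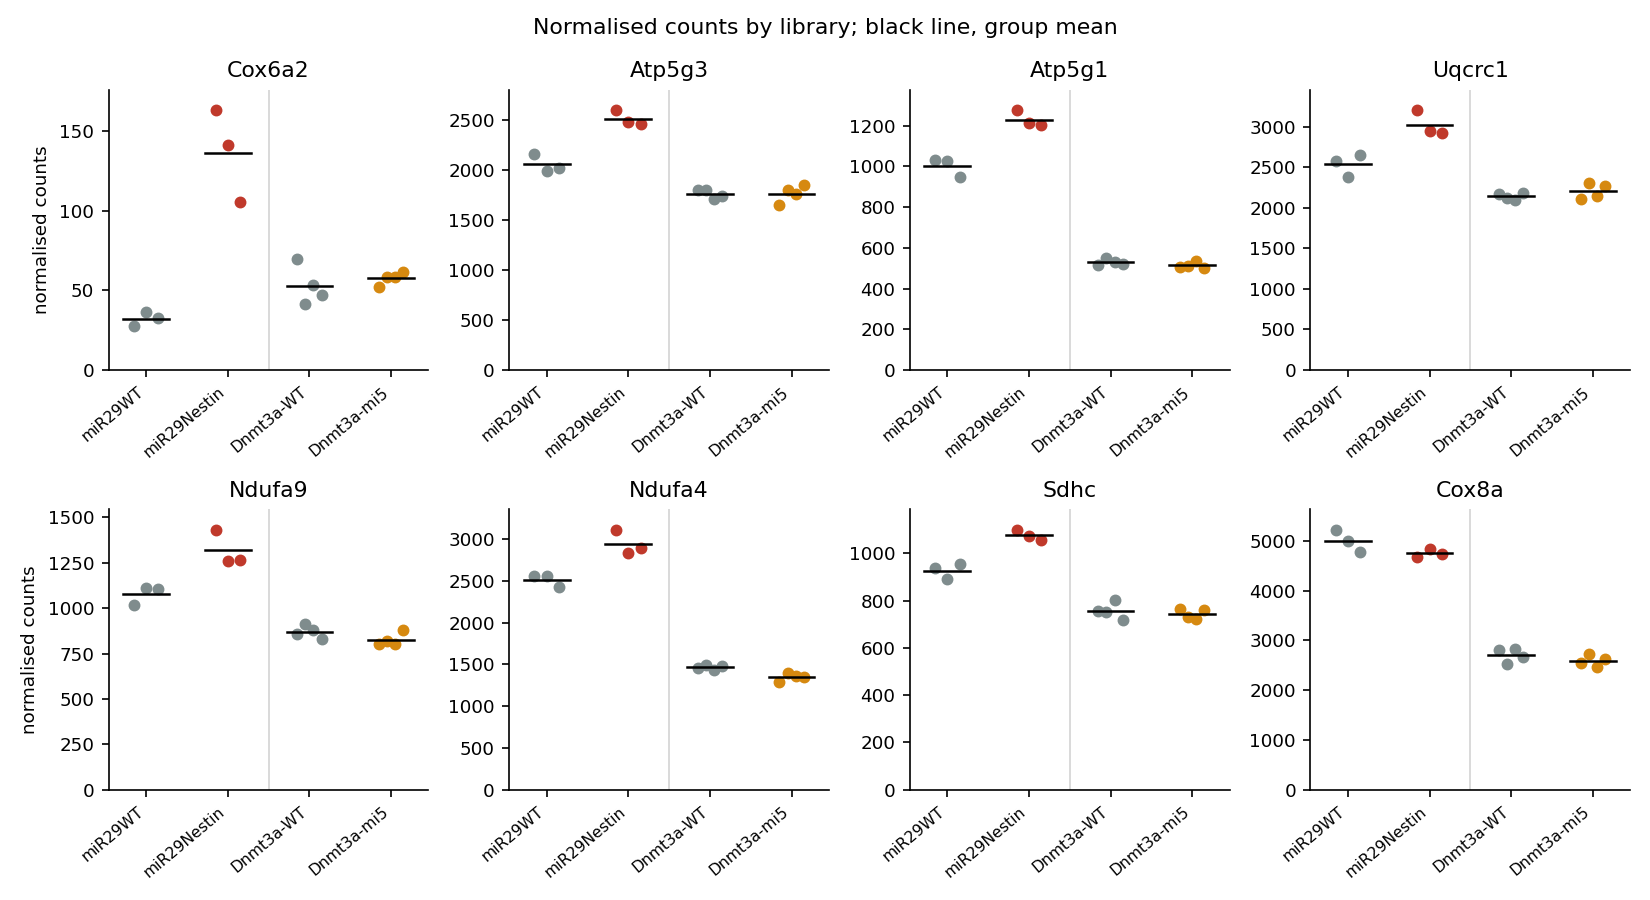
Normalised counts (vertical axes, from 0) of 8 members in each library of the 4 groups, with group means as black lines; the 2 tables were normalised separately. The miR29Nestin points of Cox6a2, Atp5g3, Atp5g1, Uqcrc1, Ndufa9, Ndufa4 and Sdhc lie above all miR29WT points, and those of Cox8a overlap with them.

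Complex IV, cytochrome c oxidase, has several subunits that come in alternative forms, and the common forms are given first. Among the 10 subunits that most tissues use, 1 was called, Cox7b, at 2694, 2470 and 2336 normalised counts against 2293, 2028 and 2012 (limma adjusted p = 0.0347). That is 10% of them, near the 9.02% of all tested genes. In 7 of the 10 all miR29Nestin libraries lay above all wild types, against 18.6% of all tested genes. Cox6c, with 1602 ± 77.0 against 1326 ± 180 normalised counts (SD, n = 3), had an adjusted p of 0.0508, and of 0.0181 with the replicate block. Cox8a, the most abundant member per kilobase, had the lowest log2 difference of the complex, -0.07 ± 0.05 (SE, limma adjusted p = 0.336). Cox7a2l measured 917 ± 12.0 against 945 ± 23.3 and did not pass the test.

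Cox6a2 had the largest difference of the tested members. It is the form of subunit VIa of heart and skeletal muscle, and in brain it has been described in fast-spiking parvalbumin interneurons. The gene lies at chr7:128205435-128206387 on the minus strand (GRCm38). It measured 163.1, 141.4 and 105.3 normalised counts in miR29Nestin against 27.64, 36.65 and 32.61 in wild type. Every miR29Nestin library was well above every wild type, and the ratio of means was 4.23. The log2 difference of the deposited values was 0.80 ± 0.09 (SE, limma adjusted p = 0.000151), smaller than the ratio because the deposited scale compresses low values. The exact two-sided permutation test over the 6 libraries gave p = 0.1, the smallest that 20 assignments allow, as it did for Atp5g3, Atp5g1, Uqcrc1, Sdhc and Ndufa9. Its wild-type mean lay under the filter of about 48 normalised counts, so this gene was tested only through its level in miR29Nestin. Among the 75 other tested members, 17 were called.

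The muscle form stayed a small part of the pair, and the common form did not fall. Cox6a1 measured 3425, 3346 and 3356 normalised counts in miR29Nestin against 3110, 3127 and 3041, without overlap (limma adjusted p = 0.0824). Per kilobase, Cox6a2 made up 3.28% ± 0.651 of the Cox6a pair in miR29Nestin (SD, n = 3) and 0.869% ± 0.119 in wild type, and Cox6a1 the rest. Cox8b, the muscle and brown-fat form of subunit VIII, was below the filter, at 13.69, 19.87 and 17.97 normalised counts against 3.359, 0.0 and 4.239. All miR29Nestin libraries lay above all wild types, at 0.548% against 0.0779% of the Cox8 family per kilobase. Cox7a1, another muscle form, went the opposite way, at 6.360, 5.932 and 5.365 against 13.37, 9.272 and 16.03 normalised counts. Its miR29Nestin libraries all lay below the wild types. The exact permutation p was 0.1 for each, again the smallest possible. Both genes were singled out after their values were seen, and counts this low carry a wide counting error.

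The other tissue forms showed no separation of the groups. Cox4i2, the lung form of subunit IV, averaged 16.5 and 14.1 normalised counts in miR29Nestin and wild type, the testis forms Cox6b2 8.89 and 10.7 and Cox7b2 4.67 and 4.72, and Cox8c was at 0 in all 6 libraries. Ndufa4l2, a relative of Ndufa4 that hypoxia induces, averaged 31.4 and 30.6. With Cox8b and Cox7a1 these make up the 6 complex IV members below the filter, and Ndufa4l2 is 1 of the 2 of complex I. The other, Ndufs5, averaged 10.7 and 9.0, although it encodes a subunit of every complex I. It averaged 136 and 138 in Dnmt3a-mi5 and Dnmt3a-WT. Genes of this pathway have many processed pseudogenes, and how reads that match several copies were counted is not given in the sources used here. Low levels of a common subunit, as in Ndufs5, Atp5g2 and Atp5l, are therefore uncertain.

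**Figure D4:**
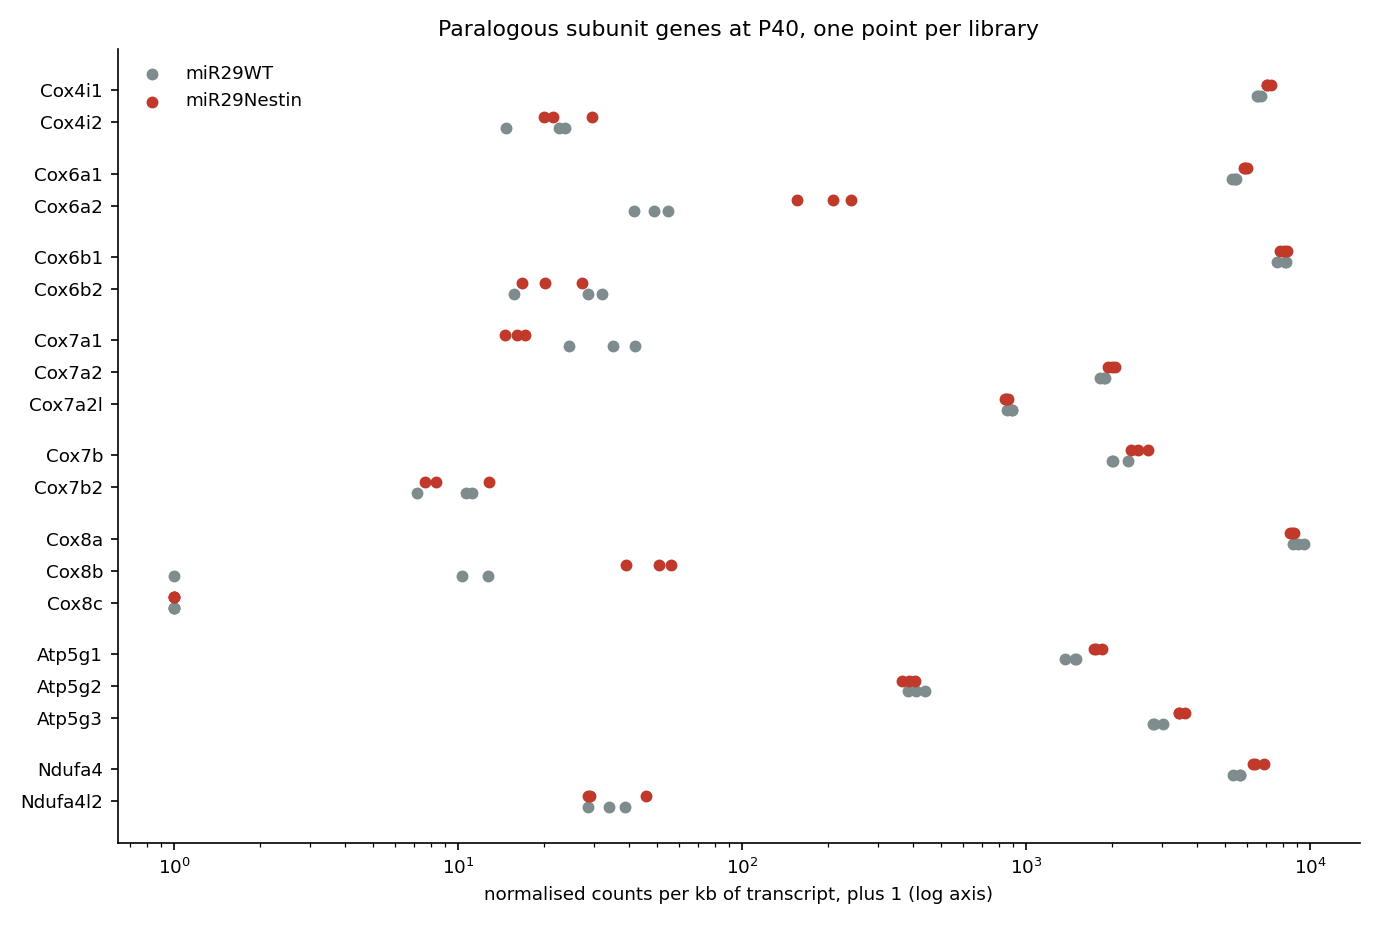
Normalised counts per kilobase of transcript plus 1 (horizontal log axis) for members that form paralog families, 1 point per library of the miR29 table. The forms of most tissues lie at 300 or more in both groups, while Cox6a2 and Cox8b are shifted to the right and Cox7a1 to the left in miR29Nestin.

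Some markers of cell types were called as well, beside 9.02% of all tested genes called higher and 10.0% lower. In whole tissue, fewer cells of a type and less RNA per cell cannot be told apart. Pvalb, the calcium buffer that names the parvalbumin interneurons, measured 1470, 1331 and 1433 normalised counts in miR29Nestin against 816.0, 670.8 and 756.2 (limma adjusted p = 4.29e-05). Of the 8 markers of these cells, Pvalb rose (12.5%, near the background), Erbb4, Kcnc2 and Kcns3 fell and 4 did not pass the test. Their summed level was 6977 to 7613 in miR29Nestin and 6145 to 6690 in wild type, with 0 of 8 at zero. Of 8 markers of striated muscle 1 was abundant enough to test, Acta1, at 138 against 143 normalised counts. Ckm, the muscle creatine kinase, was at or under 1.81 in every library, and the muscle sum was 213.5 to 257.4 against 187.1 to 261.3.

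Of 5 brown-fat markers, Dio2, which astrocytes also express, rose from 1390 ± 114 to 2140 ± 150 normalised counts (SD, n = 3, limma adjusted p = 0.000305). Ucp1 was at 0.932, 1.00 and 3.63 in miR29Nestin and at 0 in the wild types, and Cidea at 25.0, 19.0 and 27.1 against 18.7, 15.6 and 15.8, both below the filter and without overlap. Cpt1b, also below the filter, overlapped between the groups, at 12.11, 7.015 and 19.02 against 6.586, 15.55 and 24.11. Elovl3 was at 0 in every library. The 5 markers summed to 2025 to 2336 against 1293 to 1521, most of it Dio2. Of the low-level members given above, Cox8b lay above and Cox7a1 below the wild types, both without overlap. The part of interneurons in the Cox6a2 result, and of brown-fat RNA in those of Cox8b and Cox7a1, was not tested.

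Of the 12 markers of cortical neurons, 0 rose and 5 fell, against 9.02% and 10.0% of all tested genes. Among the 5 were Nrgn (15640 against 19220 normalised counts) and Slc17a7 (16470 against 19910). Summed levels were 151200 to 159500 against 165700 to 184500. Of 8 astrocyte markers, 3 rose (37.5%) and 1 fell, which is near the background (sums 15910 to 16550 against 14550 to 15330). Of 8 oligodendrocyte markers, 2 rose (25%) and 0 fell, with overlapping sums. Of 7 tested meningeal markers, 5 rose (71.4%), with sums of 1730 to 2237 against 821.2 to 1361, while Dcn overlapped between the groups. Microglia had 0 called in either direction, and endothelium and mural cells 1 each way, near the background. These lists are short. The part of these marker differences in the subunit counts was not tested.

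Member transcripts are also shorter than most, with a median of 652 nt against 2647 nt for tested genes. Genes of 500 to 1000 nt that are no members had a median log2 difference of 0.02 (1101 genes), and the 38 members in that range 0.12. From 1000 to 2000 nt the medians were 0.02 for 2763 other genes and 0.16 for 18 members. With length and GC trends removed from each library, the median over all tested members was 0.08 and 14 were called. Cytosolic ribosomal proteins, also short and abundant, had a median of -0.02. Of 81, 2 were higher (2.47%) and 2 lower, below the 9.02% and 10.0% of all tested genes.

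Related mitochondrial lists were set beside the subunits. Of 17 enzymes of the tricarboxylic acid cycle and its pyruvate entry, 5 rose (29.4%) and 0 fell, against 9.02% and 10.0% of all tested genes (median 0.06 on the log2 scale). Among them were Ogdh, of the oxoglutarate dehydrogenase complex, at 5137 ± 46.0 against 4034 ± 199 normalised counts (SD, n = 3, limma adjusted p = 0.000875), Idh2 at 572 ± 29.4 against 396 ± 28.7 (0.00169), Pdhb and Suclg1. The groups of these genes did not overlap.

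Factors that build the complexes came to shares near or below the background of 9.02%. Of 15 assembly factors of complex I, 0 passed the test (median 0.02), and of 31 for complexes II to V, 3 rose (9.68%) and 1 fell. The 3 were Cox11 (copper delivery, 292 against 199 normalised counts, limma adjusted p = 0.00607), Cox15 (heme A synthesis, 596 against 466, 0.0165) and Cox14 (667 against 546, 0.0261). Coa5 fell from 1396 to 1087 (0.00487), the smallest adjusted p of the 31. The mitochondrial ribosomal proteins had 2 of 77 higher and 0 lower, with a median of 0.03. Of 20 genes of import, membrane and fission, 2 rose (10%, near the background), the phosphate carrier Slc25a3 that supplies ATP synthase (4588 against 3896, limma adjusted p = 0.0141) and the fusion protein Mfn1.

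Of 12 regulators of mitochondrial biogenesis 0 passed the test, and their median log2 difference was -0.04. The coactivator Ppargc1a measured 553 ± 93.0 against 541 ± 32.5 normalised counts (SD, n = 3), and Tfam, which maintains mitochondrial DNA, 413 ± 28.9 against 416 ± 26.1. Esrra, an orphan nuclear receptor, had a log2 difference of 0.18 (adjusted p = 0.0505), and Nrf1, which activates many subunit promoters, -0.20 (0.0784). Levels of RNA are not levels or activity of the proteins.

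**Figure D5:**
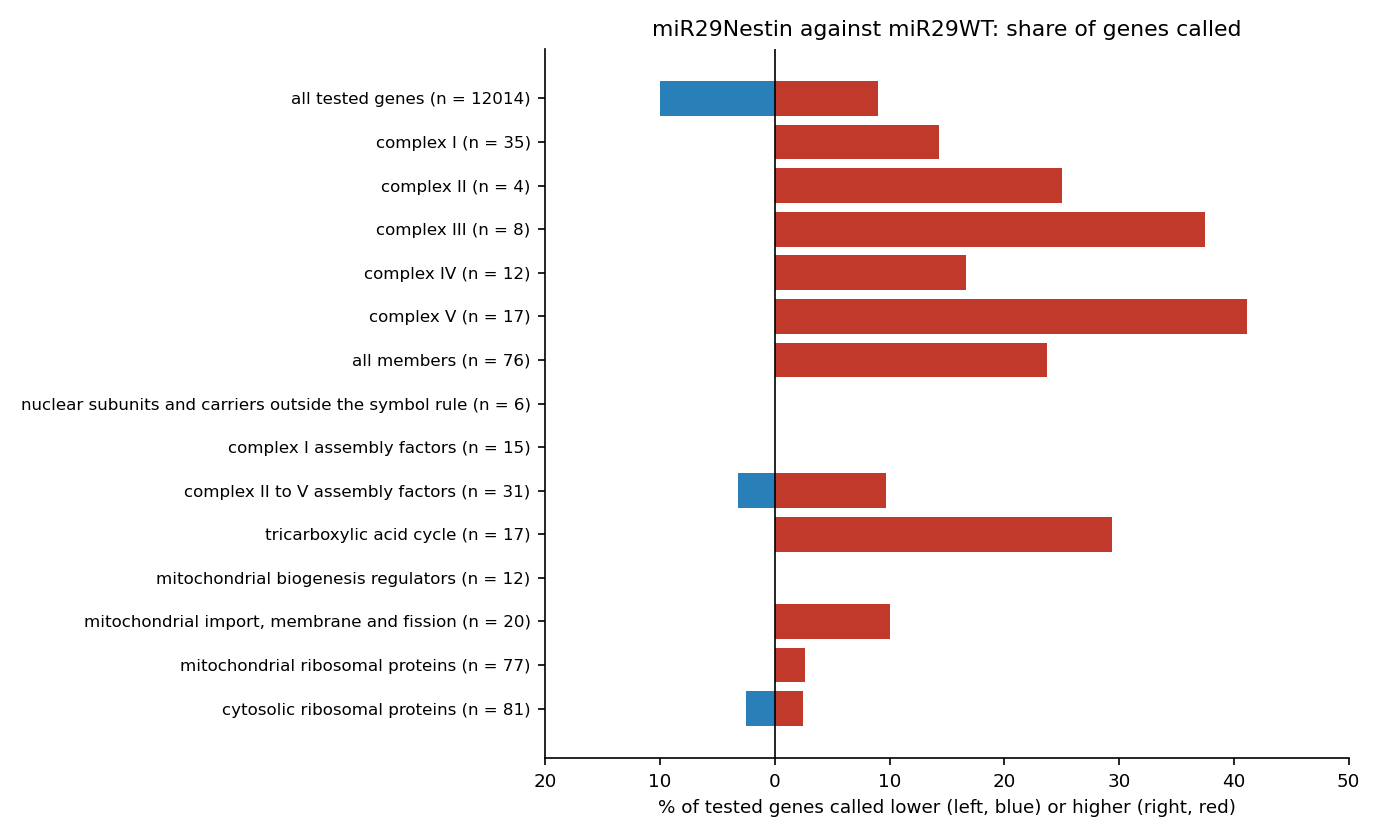
Share of tested genes called lower (left, blue) and higher (right, red) in miR29Nestin against miR29WT, for all genes, the members, each complex and the related lists, with the number tested. The complexes have calls on the right only, at 14.3 to 41.2%, against 9.02% of all genes. Without Cox6a2, which was tested only through its miR29Nestin level, complex IV has 9.09%. The complex I calls include Ndufa4, whose protein binds complex IV.

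The promoters of the members were searched for the sites of 4 classic regulators, on both strands, from 250 bases before to 50 after the annotated start (RefSeq, GRCm38.p6). Of the 84 members 69 had a promoter there, in 75 windows. The palindromic motif of NRF1, the half-site GCGCA joined to its reverse complement TGCGC, occurred in 6.67% of member windows, against 1.98% of windows of tested genes and 0.97% of all 32851 windows. The motif of YY1, AAGATGGC, occurred in 16.0% against 4.44% and 2.75%. Most of these member matches lay downstream of the start, as given below. The ETS-family motif CCGGAAGT occurred in 6.67% against 7.56% and 3.89%, and that of estrogen-related receptors, TCAAGGTCA, in 2.67% against 0.28% and 0.42%. That 2.67% rests on 2 windows, those of Atp5g3 and Sdhd. None of the 4 motifs contains another. Matches are letters in a window, not measured binding.

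The matches in members called higher follow as examples, 30 bases each on the strand of the gene, with the motif or its reverse complement in capitals.
Uqcrc1, NRF1 motif, plus strand, chr9:108936668-108936697: actccgctctGCGCATGCGCagcgcggctc
Ndufa9, YY1 motif, minus strand, chr6:126849097-126849126: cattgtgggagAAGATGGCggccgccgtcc
Ndufs4, YY1 motif, minus strand, chr13:114388045-114388074: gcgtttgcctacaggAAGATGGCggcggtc
Atp5j, YY1 motif, minus strand, chr16:84835046-84835075: aaagtgtaggaAAGATGGCggagtcttagc
Uqcrh, ETS motif, minus strand, chr4:116075063-116075092: gagtatgccgcACTTCCGGccaggtcgccg
Atp5g3, estrogen-related receptor motif, minus strand, chr2:73911359-73911388: tgttacaaagTGACCTTGAgcgtcttcccc

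In 2 of the 3 called genes with a YY1 match, Ndufa9 and Ndufs4, the match begins 29 and 35 bases downstream of the RefSeq start. Among all members with the YY1 motif, only Atp5f1 and Atp5j had no such match. The others had it on the gene strand, 22 to 38 bases downstream of a start, so within the transcribed sequence. The YY1 motif holds the letters ATG, and whether these matches are start codons, not promoter sites, was not tested. Of the 11 members with the YY1 motif 3 were called, and of the 5 with the NRF1 motif 1 was. Both are near the 23.7% of all tested members called higher, against 9.02% of all tested genes. Of the 18 called members 14 had a window, of which 6 held a match to at least 1 motif and 8 held none, which says only that these letters are not there. The other 4 were not searched. Over all 69 members with a window, the NRF1, YY1, ETS and estrogen-related receptor motifs occurred in 5, 11, 5 and 2.

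In Dnmt3a-mi5 cortex, where Dnmt3a alone was released from miR-29, the members stood close to wild type. Of 75 tested members 0 were called in either direction by limma, over 10670 genes tested. Over all genes 0.0281% were called higher (3 genes) and 0.0937% lower (10 genes), so few calls were made in any gene group. At an unadjusted p under 0.05, 5 members (6.67%) were higher and 1 (1.33%) lower, against 6.22% and 8.50% of all tested genes, so these shares are near or below the background. The median log2 difference was 0.02, against 0.002 for all tested genes, with a range of -0.10 to 0.13 and a median standard error of 0.04. In 7 members (9.33%) the Dnmt3a-mi5 libraries all lay above the wild types, against 5.33% of genes, and in 1 they all lay below, against 6.67%.

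The members with the smallest p were mostly of complex I. Ndufb10, of the membrane arm, measured 817.3, 808.0, 873.5 and 849.6 normalised counts in Dnmt3a-mi5 against 763.2, 762.7, 688.9 and 748.8, a log2 difference of 0.13 ± 0.04 (SE, limma adjusted p = 0.187). Ndufs3, of the quinone-binding module, measured 629.9, 634.8, 670.2 and 645.7 against 609.5, 569.9, 550.5 and 581.5 (limma adjusted p = 0.220). Ndufs7, of the same module, had a log2 difference of 0.12 (adjusted p = 0.246), and the libraries of neither gene overlapped between the genotypes. Ndufa11 and the small ATP synthase subunit Atp5k had log2 differences of 0.09 and 0.10, and adjusted p-values of 0.276 and 0.246. None of these passed the adjusted test. The exact two-sided permutation p of each was 0.0286, the smallest that 70 assignments of 8 libraries allow, before any adjustment. Groups without overlap always give this smallest value, so it adds nothing to the lack of overlap. An effect with 2 levels had been removed from this table, and the assignments were not kept within its levels. Kept within them, the assignments would be fewer and the smallest possible p larger.

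Ndufa4 measured 1289, 1394, 1363 and 1348 normalised counts in Dnmt3a-mi5 against 1457, 1489, 1428 and 1487. Its libraries lay below every wild type, a log2 difference of -0.10 ± 0.04 (SE, limma adjusted p = 0.253). In miR29Nestin its libraries had all lain above wild type. The difference between the models was not tested, since ages, kits and scaling differ.

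The members called higher in miR29Nestin showed no common direction in Dnmt3a-mi5. Of the 17 tested in both tables, 7 had a positive difference, against 51.3% of all tested genes, with a median of -0.02 on the log2 scale. In 0 of them did all Dnmt3a-mi5 libraries lie above the wild types. That held for only 5.33% of all tested genes, so 0 of 17 is near the background. Atp5g3 measured 1760 ± 86.2 against 1758 ± 45.5 normalised counts (SD, n = 4), with a 95% interval of its log2 difference of -0.09 to 0.09. For Atp5g1 the interval was -0.10 to 0.05, for Sdhc -0.10 to 0.06 and for Uqcrc1 -0.05 to 0.12. Cox6a2, below the filter of about 80.1 normalised counts in this table, measured 52.34, 58.53, 58.38 and 61.43 in Dnmt3a-mi5 against 69.91, 41.37, 53.45 and 47.37, and the groups overlapped. Cox8b (3.42 against 2.97) and Cox7a1 (4.80 against 6.28) overlapped as well. Ndufa4l2, also below the filter, did not, at 18.69, 20.23, 18.05 and 20.52 against 16.53, 14.41, 15.72 and 15.52. Pvalb measured 570 ± 49.4 against 488 ± 142 and did not pass the test.

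The related lists had 0 called in either direction in Dnmt3a-mi5 for assembly factors, tricarboxylic acid cycle, biogenesis regulators, import and both kinds of ribosomal protein. Their median log2 differences were between -0.02 and 0.03. Among the cell type lists 1 gene was called, the microglial receptor Cx3cr1 (487 ± 12.0 against 629 ± 22.2 normalised counts). Choroid plexus RNA differed between libraries of both genotypes, its 6 markers summing to 328.8 to 14010 in Dnmt3a-mi5 and 128.2 to 11910 in wild type.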

How the data were processed

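The authors deposited 1 table per model of log2 values, named as DESeq2 variance-stabilised data and computed over that table's own libraries. Per the submitters' processing notes, cutadapt, STAR, Salmon and DESeq2 were used with the builds hg19 and mm9, without versions or roles. Per the labels' protocols, miR29 libraries were made with RNeasy and TruSeq stranded kits and Dnmt3a libraries with Direct-zol and KAPA stranded kits, sequenced paired-end.

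Normalised counts were recovered by inverting the transformation from each table's zero level (6.5861 and 7.6295). For miR29 libraries, 88.0 to 90.6% of low values came within 0.05 reads of a whole number. In the Dnmt3a table the means of 2 sets of 4 libraries, balanced over genotype, were equal for every gene within 5.5e-09. An effect with 2 levels had been removed, so a term for it entered the fit, which otherwise counts 1 residual degree of freedom too many. Replicate names repeat there, and its libraries are numbered by column order only.

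Genes were tested with limma 3.58.1 (R 4.3.3; mean-variance trend, Benjamini-Hochberg) if their mean exceeded the table's minimum by 1 on the log2 scale, about 48 and 80.1 normalised counts. The fit was tested on simulated data. In the miR29 table, same-numbered libraries deviated together (r = 0.335, 0.204 and 0.186 over 12014 genes), so the replicate number was also tried as a block. Differently numbered pairs ran from -0.327 to 0.178. The latter, miR29Nestin library 3 with wild-type library 2, is close to the lowest same-numbered value, so the pairing is uncertain. Lengths, sites and coordinates came from GENCODE M21 (23793 symbols matched directly, 297 by synonym, 354 not). Transcript length is the median of basic coding transcripts. The alternatives were other filters, scalings, variance priors, a sex term, length and GC correction and leaving out each library.

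Members and lists were chosen with earlier results of these data known. Named in full are the members with the smallest p per complex and table, the lowest member, all paralog families and the Sdh genes, with all called members. Recovery and summaries used Python 3.11.15 with pandas 2.3.3 and numpy 2.4.6. Permutation tests enumerated all assignments and did not keep them within the 2 sets of Dnmt3a libraries.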

Additional observations from a re-analysis of the deposited data

Results flagged for a closer look

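Of 70 groups of 4 libraries in the Dnmt3a table (each named member tested there, in each genotype), 4 held a library far from the other 3, where chance gives about 1 in 20. Cox5b stood at 1133 normalised counts in Dnmt3a-WT library 3 and at 1184 to 1194 in the others. Uqcrq stood at 701.0 in the same library and at 747.4 to 751.2 in the others. Cox6a1 stood at 2062 in Dnmt3a-WT library 4 against 1964 to 1975, and Cox7a2l at 943.4 in library 1 against 877.6 to 885.5. None of the 4 members passed the test in that table.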

How the results depend on the processing

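In the miR29 table the 11 other settings called 12 to 25 members higher and 0 lower (18 and 0 as reported). The median difference was 0.084 with length and GC trends removed, with or without the replicate block, and 0.118 to 0.146 otherwise. Complex IV counts were 4 with no filter and with quantile normalisation and 1 without the mean-variance trend. Complex V then had 4. With length and GC removed, complex I had 3 and complex II 0. With the replicate block complex I had 8, and with length and GC also removed complex I had 7, complex II 0 and complex IV 3. With the sex term complexes I, II and III had 8, 2 and 5. Leaving out 1 library gave 6 to 20 members higher, 1 to 6 in complex I, 0 to 1 in II, 1 to 4 in III, 1 to 3 in IV and 2 to 6 in V, and 666 to 1019 genes higher and 718 to 1294 lower over all genes.

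Directions reversed only in members near 0. With length and GC removed, with or without the block, Cox6b1 was at -0.017, Ndufb8 at -0.02 and Sdhb at -0.046. Leaving out 1 library, Cox6b1 ran from -0.02 to 0.035, Ndufa1 from -0.053 to 0.05, Sdhb from -0.055 to 0.051 and Uqcrc2 from -0.03 to 0.043. In the Dnmt3a table Sdhb was at -0.002 with length and GC removed and Sdhc ran from -0.038 to 0.006 when 1 library was left out. The replicate block brought Cox6c and Uqcrfs1 past the threshold and changed no other call among the named members. For Dnmt3a-mi5, 0 members were called under any alternative, while over all genes 24 were higher and 61 lower without the 2-level term, and 1 to 15 higher and 0 to 67 lower without 1 library. No paired analysis was possible in that table because its columns carry no usable replicate numbers. The cause of these changes was not tested. Low-level forms such as Cox8b and Cox7a1 are limited by depth.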
